A study of Mus musculus with 17 samples.

Results

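The genes described here encode the nuclear subunits of the 5 complexes of oxidative phosphorylation, together with assembly factors and gene copies whose symbols share the subunit prefixes. They were chosen by name: a gene is a member if its symbol in the deposited expression table starts with Ndufa, Ndufb, Ndufc, Ndufs, Ndufv, Uqcr, Cox4, Cox5, Cox6, Cox7, Cox8, Atp5, Sdha, Sdhb, Sdhc or Sdhd. That rule found 100 of the 18262 genes in the table. Of these, 36 encode subunits of complex I, 4 of complex II, 8 of complex III, 19 of complex IV and 17 of complex V. A further 12 encode assembly factors (Ndufaf1 to Ndufaf8 and Sdhaf1 to Sdhaf4), and 4 are pseudogenes or near-identical copies (Cox7c-ps1, Ndufs5-ps, Ndufb4c and Ndufa11b). Ndufa4 and its paralog Ndufa4l2 are counted with complex IV, since the Ndufa4 protein is a component of that complex.

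The study measured RNA from whole lungs of C57BL/6 mice in a model of rhabdomyosarcoma, in which the lung is examined as a site prepared for metastasis. Tumor-bearing mice had received 5E5 M3-9-M rhabdomyosarcoma cells, which carry firefly luciferase and mCherry, in the gastrocnemius muscle. Treated mice received 8E6 IL12-GEMys, myeloid cells engineered to secrete interleukin 12, into a vein on day 12 after tumor injection, and lungs were taken 3 days later, on day 15. The 4 lung groups were treated tumor-bearing mice, treated naive mice, untreated tumor-bearing mice and untreated naive mice, with 4 libraries each. A single further library held the IL12-GEMy cell product, bone marrow cells of naive C57BL/6 mice that had undergone lentiviral transduction in the presence of SCF, FLT3L and IL-6. In the deposited library names the treated tumor-bearing libraries all carry the number 2 and the untreated tumor-bearing ones the number 1, while naive libraries are numbered 1 to 4. What that number marks is not stated, and anything it marks cannot be told apart from treatment among tumor-bearing mice. Whether each library was a different mouse is not stated in the labels, and the p-values therefore cover library-to-library spread alone. The labels mention no group given myeloid cells without interleukin 12, and the cell product has no replicate.

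Complexes I to IV of the inner mitochondrial membrane pass electrons from NADH and succinate to oxygen, and complexes I, III and IV pump protons as they do so. Complex V, the ATP synthase, makes ATP as the protons flow back. Each complex is built from nuclear-encoded subunits imported into the mitochondrion, joined in all but complex II by subunits encoded in mitochondrial DNA. Several complex IV subunits exist as paralogs that replace each other by tissue: Cox6a2, Cox7a1 and Cox8b are the forms of heart and skeletal muscle, whereas Cox4i2 is known from lung and its vessels and from low oxygen.

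Each lung library held 27566479 to 36814537 reads assigned to genes and the product 31110966, as recovered from the steps of its values, and members drew 0.499% to 0.631% of these reads in lungs. The label of lung was met by alveolar type 2 markers, whose 8 genes summed to 18543 to 30129 RPM (reads per 1E6 assigned reads) in lungs and 87.7 RPM in the product, with 4 of the 8 at 0 there. Myeloid progenitor markers summed to 3161 RPM in the product and 221 to 293 RPM in lungs. Among lung libraries, 2 stood apart in members. Replicate 4 of untreated tumor-bearing mice was the lowest of its group for 62 of the 92 members tested, against 45.9% of all genes, and hemoglobin took 5.41% of its reads. Replicate 4 of treated tumor-bearing mice was the lowest of its group for 54 of 92 members, against 30.8% of all genes. In these 2 libraries the 53 members with transcripts under 800 bases lay at a median log2 difference of −0.17 (untreated) and −0.19 (treated) from the other 3 of the group. The 34 longer members lay at −0.08 and −0.05, the 1185 genes of all kinds under 800 bases at −0.08 and −0.08, and the 8676 longer genes at −0.05 and 0.02. Replicate 3 of treated tumor-bearing mice was lowest for none of the 92 members, and its short members lay 0.19 above the other 3. Whether RNA quality set these shifts was not tested, and results that rest on these libraries are given with and without them. The replicates 4 of both tumor-bearing groups stand next to each other in the serial numbers that open the deposited library names. What that order marks is not stated.

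**Figure D1:**
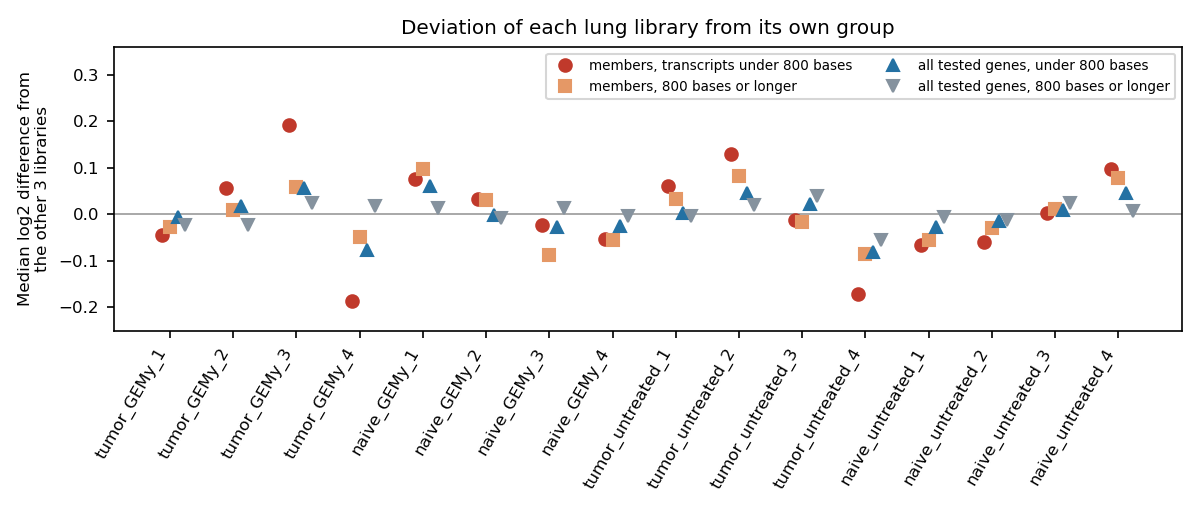
Median log2 difference of each lung library from the other 3 libraries of its group, for members and for all genes, split at a median transcript length of 800 bases; tumor_GEMy and naive_GEMy are treated mice, tumor_untreated and naive_untreated untreated ones. Replicate 4 of both tumor-bearing groups has the lowest short members, at −0.19 with treatment and −0.17 without, and replicate 3 of treated tumor-bearing mice the highest, at 0.19.

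Summed over all 100 members, reads were fewest in untreated tumor-bearing mice and most numerous in treated naive mice. The sum was 5492 ± 235 RPM in treated tumor-bearing mice, 5992 ± 255 in treated naive mice, 5361 ± 286 in untreated tumor-bearing mice and 5811 ± 214 in untreated naive mice (SD, n = 4 each). The cell product reached 8973 RPM, above each of the 16 lungs. In tissue made of many cell types, fewer cells of a type and less RNA per cell cannot be told apart, and these sums are descriptions with no test.

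Complex I and complex II separated the untreated groups. The 36 complex I genes summed to 1197 to 1380 RPM in untreated tumor-bearing mice, against 1423 to 1543 RPM in untreated naive mice. The 4 complex II genes, which make the enzyme that oxidizes succinate, summed to 447 to 493 RPM in untreated tumor-bearing mice, against 513 to 552 RPM in untreated naive mice. Neither pair of ranges overlapped, while those of complexes III, IV and V did. Of all single genes tested, 38.2% had no overlap between these groups. Sdha gave the largest part of the complex II sum, with a lung mean of 249 RPM, where Sdhb, Sdhc and Sdhd had 73.0 to 95.5 RPM. Complex V, which holds the most abundant members, summed to 1868 to 2022 RPM in untreated tumor-bearing mice, against 2008 to 2210 RPM in untreated naive mice.

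With treatment, complexes I, III and IV separated tumor-bearing from naive mice. The 19 complex IV genes summed to 866 to 1034 RPM in treated tumor-bearing mice, against 1040 to 1153 RPM in treated naive mice. Complex I ran at 1251 to 1439 RPM in treated tumor-bearing mice, against 1464 to 1615 RPM in treated naive mice. For complex III the gap was less than 1 RPM, with 473 to 521 RPM in treated tumor-bearing mice and 522 to 570 RPM in treated naive mice. Complexes II and V overlapped between these groups, and of all single genes tested 21.0% did not.

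**Figure D2:**
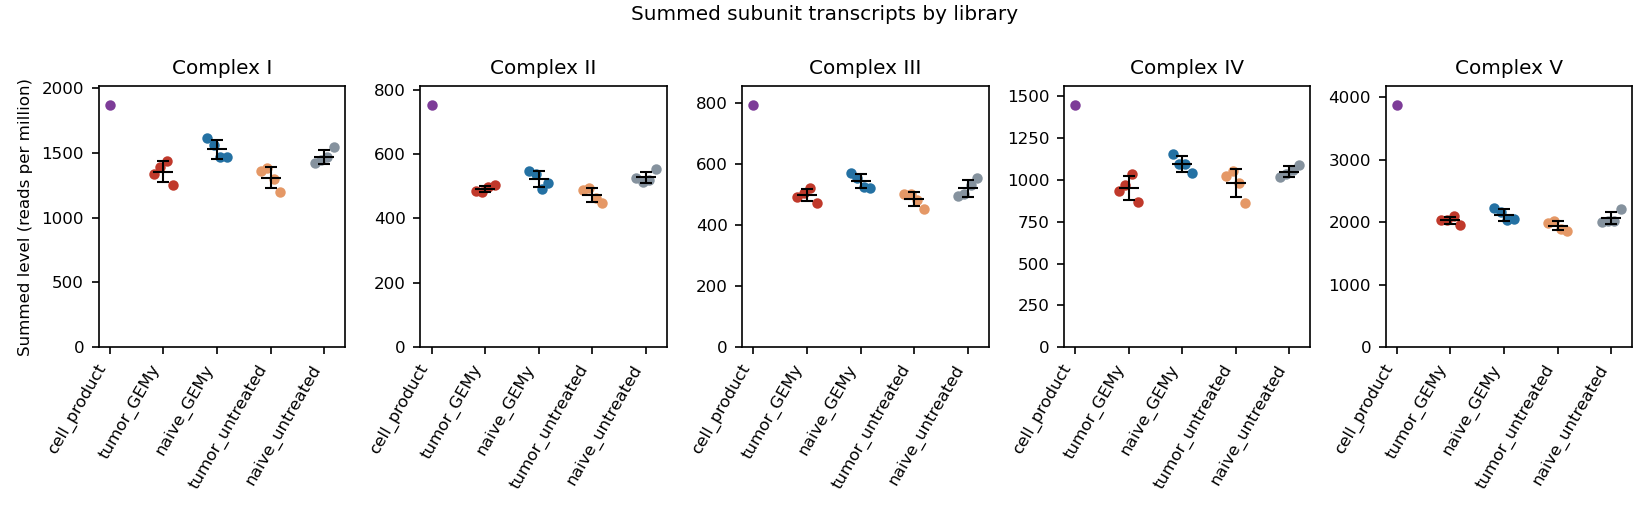
Summed RPM of the members of each complex in every library, with the cell product at the left and then the 4 lung groups; points are libraries and bars the mean ± SD of 4. The product lies above all lungs in every complex, and complexes I and II lie lower in untreated tumor-bearing than in untreated naive mice without overlap.

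Members were then tested one by one, on log2(FPKM + 0.5), a scale that understates the change of low genes, where FPKM is the deposited value (fragments per kilobase of gene and per 1E6 reads). A member was called at an adjusted p under 0.05 in limma, with the adjustment over all 10284 genes that reached 0.5 FPKM in at least 4 lung libraries. Of the 100 members, 92 reached this minimum, namely 34 of 36 in complex I, all of complexes II, III and V, 18 of 19 in complex IV, 8 of 12 assembly factors and 3 of 4 copies. Below it lay Ndufb4, Ndufs4, Cox7b2, Ndufa11b, Ndufaf2, Ndufaf5, Ndufaf6 and Sdhaf3, whose lung values ran from 0 to 0.450 FPKM. The value is per kilobase of genomic span, so a long gene can miss the minimum with many reads. Ndufs4, with a span of 100.3 kilobases, had 695 to 930 reads in each lung library, and Ndufaf2, with 106 kilobases, had 122 to 194. Cox7b2 had 0 to 6 reads.

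Untreated tumor-bearing lungs were lower than untreated naive lungs in 25 of the 92 members, or 27.2%, and higher in 0. Of all genes tested, 27.2% were lower and 16.9% higher, so the share that was lower was that of genes in general. Of the members, 1 had an unadjusted p under 0.05 in the higher direction in limma, Cox5a, and 33 in the lower. The median log2 difference was −0.11 over members and −0.05 over all genes, and 75 of the 92 were negative. Groups did not overlap in 26 members, against 38.2% of all genes. The lower members were 12 of 34 in complex I, 2 of 4 in complex II, 1 of 8 in complex III, 5 of 18 in complex IV, 3 of 17 in complex V and 2 of 8 assembly factors. Beside them, 7 of 8 alveolar type 2 markers were lower, their sum being 18543 to 23638 RPM in untreated tumor-bearing mice and 27623 to 30129 RPM in untreated naive mice. Of 8 neutrophil markers 7 were higher, with sums of 2939 to 4898 RPM in untreated tumor-bearing mice and 189 to 278 RPM in untreated naive mice, and the part of these shifts in the members' values was not tested. Without replicate 4 of untreated tumor-bearing mice 9 members were lower, without replicate 4 of untreated naive mice 10, and without replicate 3 of untreated tumor-bearing mice or replicate 2 of untreated naive mice 16 each, with 1 higher in the first of these. Scaling by median of ratios in place of the library total left 8 lower and made 1 higher.

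Among treated mice, tumor-bearing lungs were lower than naive lungs in 13 of 92 members, or 14.1%, against 9.17% of all genes, and higher in 0, against 4.03%. No member had an unadjusted p under 0.05 in the higher direction in limma, and 41 had one in the lower. The median log2 difference was −0.16 over members and −0.05 over all genes, and 88 of 92 members were negative. The lower members were 4 of 34 in complex I, 1 each in complexes II, III and V, 5 of 18 in complex IV and 1 assembly factor. Complex IV had the lowest median, −0.23, with all 18 tested genes negative. Groups did not overlap in 22 members, against 21.0% of all genes. Beside them, 7 of 8 neutrophil markers were higher, with sums of 1446 to 4272 RPM in treated tumor-bearing mice and 169 to 237 RPM in treated naive mice. Of 8 alveolar type 2 markers 1 was lower and 0 higher. Their sums overlapped, at 23793 to 26934 RPM in treated tumor-bearing mice and 25118 to 29877 RPM in treated naive mice. Of 5 B cell markers tested 4 were lower, the 6 in the table summing to 140 to 202 RPM in treated tumor-bearing mice and 274 to 305 RPM in treated naive mice. The part of these shifts in the members' values was not tested. The count fell to 6 without replicate 1 or replicate 4 of treated tumor-bearing mice or replicate 1 of treated naive mice, and to 7 without replicate 2 of treated naive mice. It was 5 under median-of-ratios scaling.

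Treated tumor-bearing mice set against untreated naive mice had 13 of 92 members lower, or 14.1%, against 25.6% of all genes, and 0 higher, against 13.6%. Of members at an unadjusted p under 0.05 in limma, 1 was higher, again Cox5a, and 20 were lower. The median log2 difference was −0.08 over members and −0.07 over all genes. Complex IV held 5 of the lower members and the assembly factors 4, while complexes III and V had none. Groups did not overlap in 14 members, against 40.0% of all genes. The count was 6 without replicate 1 of treated tumor-bearing mice or replicate 3 of untreated naive mice, and 8 without replicate 4 of treated tumor-bearing mice or replicates 1 or 2 of untreated naive mice. Median-of-ratios scaling gave 5 lower and 1 higher.

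IL12-GEMy treatment moved few members. In naive mice 1 of 92 was higher with treatment and 0 lower, against 5.60% and 1.50% of all genes, and at an unadjusted p under 0.05 in limma the counts were 9 higher and 0 lower. In tumor-bearing mice 0 were higher and 1 lower, against 3.00% and 3.72% of all genes, with 4 in each direction at an unadjusted p under 0.05 in limma. Median log2 differences over members were 0.07 in naive and 0.03 in tumor-bearing mice, where all genes had −0.02 and −0.01. Groups did not overlap in 8 members in naive mice, against 18.2% of all genes, and in 5 members in tumor-bearing mice, against 9.50%. The difference between the 2 treatment effects was tested as an interaction and called in 0 of 92 members in limma, against 1.04% of all genes higher and 5.22% lower. At an unadjusted p under 0.05 the interaction was negative in 4 members, Ndufa6, Ndufc1, Cox7a2l and Atp5l. Leaving out replicate 4 of untreated tumor-bearing mice raised the lower members in tumor-bearing mice to 3, and leaving out replicate 2 of that group removed the only one. Without replicate 4 of treated tumor-bearing mice or replicate 1 of untreated tumor-bearing mice 1 member was higher there, and without replicate 3 of the treated or replicate 1 of the untreated tumor-bearing mice 1 member had a negative interaction.

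**Figure D3:**
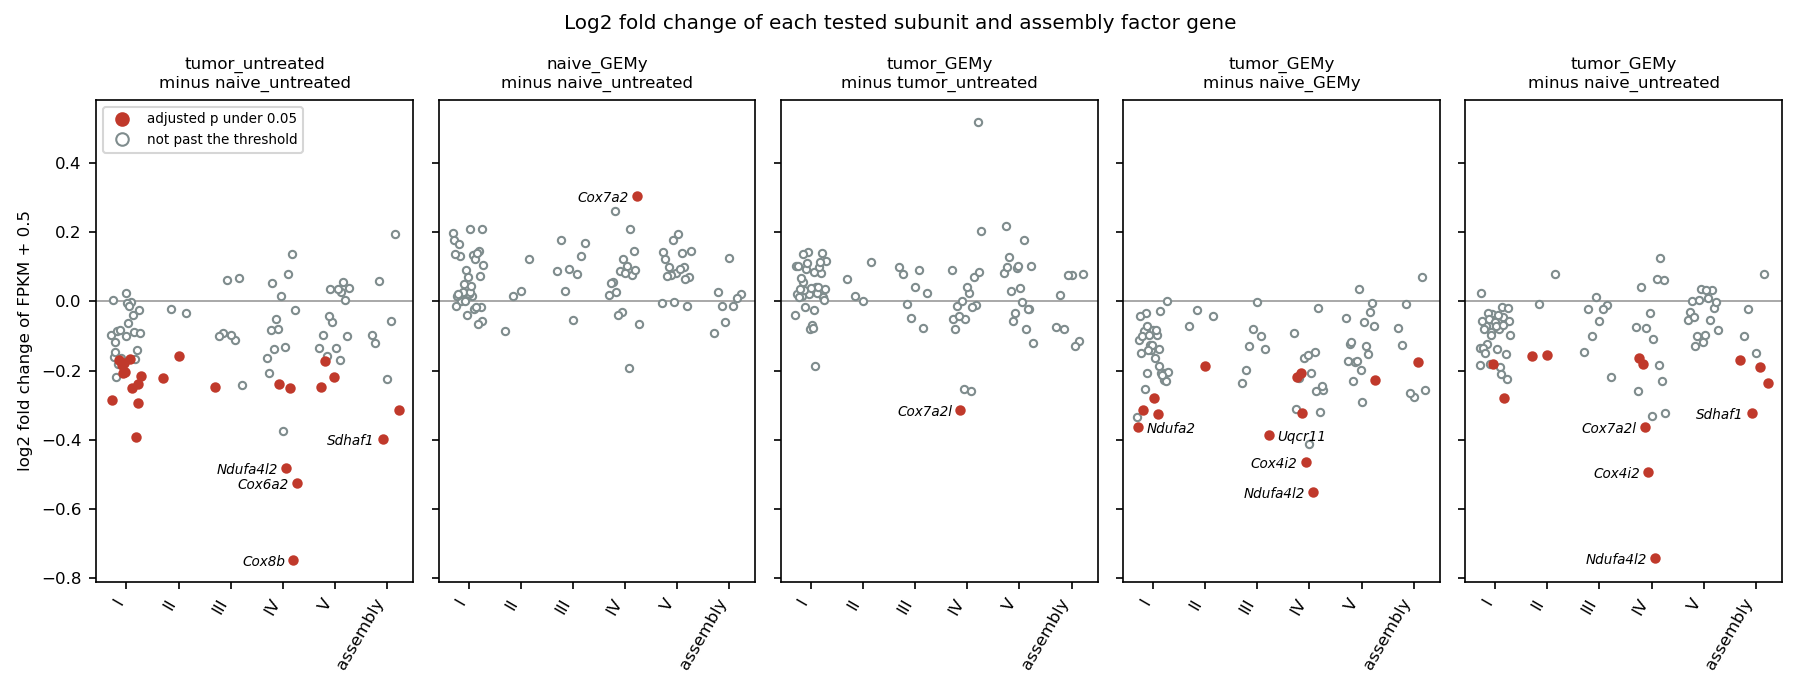
Log2 difference on log2(FPKM + 0.5) of the 89 tested subunit and assembly genes, by complex, in the 5 comparisons between lung groups; each point is a gene and filled red points have an adjusted p under 0.05. Lower points prevail in the comparisons of tumor-bearing with naive mice, with 25, 13 and 13 called lower and none higher, and 1 gene is called in each comparison of treated with untreated mice.

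Promoters were read for the members that RefSeq lists on build GRCm38.p6, as the 250 bases before and 50 after each transcript start. They covered 80 of the 100 members in 85 entries, out of 32851 for all genes. Member promoters had a median GC content of 58.7%, against 52.7% for all. Of motifs searched on both strands, TGCGCA, a run within the nuclear respiratory factor 1 site, stood in 25.9% of member promoters and 7.76% of all. Also in 25.9% of member promoters was CCGGAAG, the site of ETS factors such as GABP, against 8.86% of all. AAGATGGC, the YY1 motif, stood in 12.9% and 2.75%, and AAGGTCA, bound by estrogen-related receptors, in 9.41% and 4.72%. Nearer to each other were ACGTG, the core of the site for hypoxia-inducible factors, with 23.5% of member promoters and 19.6% of all, and TATAAA, with 11.8% and 13.6%. These motifs were not compared at matched GC content, and a match is only a run of letters. Sequences are given for 6 promoters whose genes carry the results: the muscle form Cox8b beside the common form Cox8a, Cox7a2l beside Cox7a2, and Ndufv3 and Sdha, the leading members of complexes I and II. Each is written in the direction of transcription, and capitals mark any of the motifs just named, on either strand; no marked motifs overlap. The positions are chr7:140900397-140900696, minus strand for Cox8b, chr19:7217567-7217866, minus strand for Cox8a, chr17:83514284-83514583, minus strand for Cox7a2l, chr9:79759804-79760103, minus strand for Cox7a2, chr17:31519865-31520164, plus strand for Ndufv3 and chr13:74350191-74350490, minus strand for Sdha.
Cox8b: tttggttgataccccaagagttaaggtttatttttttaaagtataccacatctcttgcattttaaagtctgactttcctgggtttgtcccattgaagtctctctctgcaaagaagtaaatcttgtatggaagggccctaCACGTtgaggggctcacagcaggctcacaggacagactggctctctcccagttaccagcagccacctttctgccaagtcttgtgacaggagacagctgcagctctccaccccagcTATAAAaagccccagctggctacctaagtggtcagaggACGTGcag
Cox8a: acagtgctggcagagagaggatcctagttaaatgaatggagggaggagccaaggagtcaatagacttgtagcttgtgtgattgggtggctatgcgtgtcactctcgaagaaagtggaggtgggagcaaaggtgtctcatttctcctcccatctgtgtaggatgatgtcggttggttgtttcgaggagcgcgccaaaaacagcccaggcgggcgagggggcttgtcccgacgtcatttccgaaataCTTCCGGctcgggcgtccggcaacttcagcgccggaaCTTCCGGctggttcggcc
Cox7a2l: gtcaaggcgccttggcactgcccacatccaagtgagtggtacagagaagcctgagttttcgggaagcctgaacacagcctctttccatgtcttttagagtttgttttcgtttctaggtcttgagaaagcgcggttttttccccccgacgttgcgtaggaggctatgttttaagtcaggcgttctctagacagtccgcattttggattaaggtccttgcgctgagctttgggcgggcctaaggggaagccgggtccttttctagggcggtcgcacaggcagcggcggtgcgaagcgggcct
Cox7a2: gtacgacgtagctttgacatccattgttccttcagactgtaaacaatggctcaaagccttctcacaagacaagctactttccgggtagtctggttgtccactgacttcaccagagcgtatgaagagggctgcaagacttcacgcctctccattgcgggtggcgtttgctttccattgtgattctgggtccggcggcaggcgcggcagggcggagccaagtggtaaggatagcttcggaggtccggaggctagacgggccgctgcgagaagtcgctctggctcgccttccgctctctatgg
Ndufv3: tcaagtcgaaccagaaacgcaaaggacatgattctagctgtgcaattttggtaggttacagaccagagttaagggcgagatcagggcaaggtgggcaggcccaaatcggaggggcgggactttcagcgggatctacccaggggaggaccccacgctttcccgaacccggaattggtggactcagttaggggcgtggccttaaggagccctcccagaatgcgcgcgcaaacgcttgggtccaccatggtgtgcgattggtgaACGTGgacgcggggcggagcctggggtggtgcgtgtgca
Sdha: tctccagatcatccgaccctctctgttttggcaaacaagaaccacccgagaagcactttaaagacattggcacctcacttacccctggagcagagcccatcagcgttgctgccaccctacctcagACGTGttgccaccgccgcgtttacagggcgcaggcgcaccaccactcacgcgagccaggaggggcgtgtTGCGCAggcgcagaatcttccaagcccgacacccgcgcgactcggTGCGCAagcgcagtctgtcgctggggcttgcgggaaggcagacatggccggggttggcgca
The Cox8b promoter held ACGTG in either orientation at 2 places and TATAAA at 1, and that of Cox8a held CCGGAAG, as CTTCCGG, at 2. Neither Cox7a2l nor Cox7a2 had any of these letters in its window. Ndufv3 had ACGTG once, just past the start, and Sdha had TGCGCA at 2 places and ACGTG at 1.

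Complex I takes electrons from NADH. Its largest fall in untreated tumor-bearing mice was in Ndufv3 (chr17:31520115-31531325, plus strand, GRCm38), an accessory subunit of the module that binds NADH. Ndufv3 had 3.71, 3.99, 3.44 and 2.89 FPKM in untreated tumor-bearing mice, against 4.55, 4.78, 4.71 and 4.87 FPKM in untreated naive mice. All 4 tumor-bearing libraries lay below all 4 naive ones, a log2 difference of −0.39 (SE 0.0701, adjusted p = 0.000435). Treated tumor-bearing mice had 3.85, 3.81, 3.99 and 3.60 FPKM, also all below the untreated naive values, a log2 difference of −0.28 (SE 0.0701, adjusted p = 0.00575). In treated naive mice it stood at 4.70, 4.60, 4.40 and 4.30 FPKM, and the difference of treated tumor-bearing from treated naive mice was −0.21 (adjusted p = 0.055). Both calls of Ndufv3 held in the reported fit and in all 20 alternative fits.

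Ndufa2, another accessory subunit of the NADH-binding module, was called in both comparisons of tumor-bearing with naive mice at matched treatment. It had 14.8, 15.4, 15.1 and 13.8 FPKM in untreated tumor-bearing mice, against 16.5, 19.4, 17.9 and 18.6 FPKM in untreated naive mice, a log2 difference of −0.29 (SE 0.0788, adjusted p = 0.00853). Of the tumor-bearing values the highest lay below the lowest naive value. With treatment it had 15.6, 17.2, 17.2 and 13.6 FPKM in treated tumor-bearing mice, against 21.8, 21.1, 18.5 and 20.8 FPKM in treated naive mice, a log2 difference of −0.36 (SE 0.0788, adjusted p = 0.00856), again with no overlap. Those 2 calls held in all 20 alternative fits.

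The core subunits of complex I carry the flavin and the iron-sulfur clusters. Ndufv1, which binds NADH and the flavin, had 13.3, 13.4, 12.9 and 12.1 FPKM in untreated tumor-bearing mice, against 14.5, 15.2, 13.8 and 16.8 FPKM in untreated naive mice. The highest tumor-bearing library stood below the lowest naive one by under 1 FPKM, and the log2 difference was −0.21 (adjusted p = 0.0276). That call was lost without replicates 3 or 4 of untreated tumor-bearing mice or replicates 2 or 4 of untreated naive mice. Ndufs1, the largest core subunit, averaged 1.71 ± 0.0401 FPKM in untreated tumor-bearing mice and 1.86 ± 0.0650 FPKM in untreated naive mice (SD, n = 4 each), with a log2 difference of −0.09 (adjusted p = 0.071), and was called in no comparison. Other core subunits lower in untreated tumor-bearing mice were Ndufs7 at −0.22 (adjusted p = 0.043) and Ndufs3 at −0.18 (adjusted p = 0.042), called in 11 and 10 of the 21 fits, the reported one included. Among accessory subunits, Ndufa7, Ndufb10, Ndufb11, Ndufa5, Ndufa11, Ndufa9 and Ndufa12 were lower, with log2 differences of −0.29 to −0.17. Ndufa12 was called in 6 of 20 fits, and the other 6 in 13 to 19 of 21.

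In treated tumor-bearing against treated naive mice, the complex I calls beside Ndufa2 were Ndufa6 at −0.32 (adjusted p = 0.039), the core subunit Ndufs8 at −0.31 (adjusted p = 0.0361) and Ndufc1 at −0.28 (adjusted p = 0.0218). They were called in 11, 13 and 17 of the 21 fits. None of these 3 was called without treatment, where Ndufs8 differed by −0.22 (adjusted p = 0.0665). Ndufa6 averaged 7.53 ± 0.800 FPKM in untreated tumor-bearing mice and 7.54 ± 0.768 FPKM in untreated naive mice, and Ndufc1 averaged 2.40 ± 0.0967 and 2.41 ± 0.167 FPKM in these groups (SD, n = 4 each). Their interaction terms were −0.32 (adjusted p = 0.202) for Ndufa6, −0.10 (adjusted p = 0.737) for Ndufs8 and −0.28 (adjusted p = 0.14) for Ndufc1, so the tumor difference was not shown to depend on treatment. Against untreated naive mice, treated tumor-bearing mice kept Ndufv3 and Ndufa5, the last at −0.18 (adjusted p = 0.0394) and called in 10 of 21 fits, as the only complex I calls.

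Complex II, succinate dehydrogenase, has 4 subunits. Sdha (chr13:74322255-74350240, minus strand) is the flavoprotein that oxidizes succinate. It had 8.49, 8.44, 8.03 and 7.92 FPKM in untreated tumor-bearing mice, against 9.66, 9.50, 9.38 and 10.1 FPKM in untreated naive mice. Every tumor-bearing library was below every naive one, a log2 difference of −0.22 (SE 0.0526, adjusted p = 0.00347), and the call held in all 20 alternative fits. Treated tumor-bearing mice had 8.36, 8.35, 8.56 and 9.18 FPKM, all below the untreated naive values, with a log2 difference of −0.16 (adjusted p = 0.0267) that was lost without replicates 1, 2 or 3 of treated tumor-bearing mice or replicates 1 or 4 of untreated naive mice. Treated naive mice had 9.34, 9.60, 8.52 and 8.87 FPKM, and Sdha was not called against them.

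Sdhc, one of the pair of membrane anchors, was the one complex II gene called in all 3 comparisons of tumor-bearing with naive mice. It had 3.79, 3.99, 3.71 and 3.47 FPKM in untreated tumor-bearing mice, against 4.27, 3.95, 4.35 and 4.33 FPKM in untreated naive mice, overlapping by replicate 2 of both groups, with a log2 difference of −0.16 (adjusted p = 0.0169). With treatment it had 3.67, 3.65, 3.87 and 3.77 FPKM in treated tumor-bearing mice, against 4.47, 4.22, 4.35 and 4.25 FPKM in treated naive mice. These did not overlap, and the log2 difference was −0.19 (adjusted p = 0.0226), while that of treated tumor-bearing from untreated naive mice was −0.16 (adjusted p = 0.0199). The first call was lost without replicate 4 of untreated tumor-bearing mice, at −0.13. The second was lost without replicates 1 or 2 of treated tumor-bearing mice or replicates 1 or 3 of treated naive mice, and the third without replicate 2 of treated tumor-bearing mice or replicate 3 of untreated naive mice. Sdhb, the iron-sulfur subunit, and Sdhd, the other anchor, were called in no comparison. Sdhb averaged 4.18 ± 0.196 FPKM in treated tumor-bearing mice, 4.33 ± 0.389 in treated naive mice, 3.84 ± 0.333 in untreated tumor-bearing mice and 3.94 ± 0.316 in untreated naive mice (SD, n = 4 each). Sdhd averaged 12.7 ± 0.102, 12.9 ± 0.945, 12.5 ± 0.467 and 12.7 ± 0.236 FPKM in the same 4 groups.

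Complex III passes electrons from ubiquinol to cytochrome c, and 1 member fell in each matched comparison of tumor-bearing with naive mice, both small accessory subunits. Uqcr10 had 15.4, 15.6, 14.1 and 12.9 FPKM in untreated tumor-bearing mice, against 15.9, 16.4, 17.6 and 19.1 FPKM in untreated naive mice. The highest tumor-bearing value was below the lowest naive one, a log2 difference of −0.25 (SE 0.0817, adjusted p = 0.0229) that was lost without replicates 3 or 4 of untreated tumor-bearing mice or replicate 4 of untreated naive mice. Uqcr11 had 7.35, 8.93, 8.20 and 6.25 FPKM in treated tumor-bearing mice, against 10.6, 10.9, 9.11 and 9.90 FPKM in treated naive mice. There was no overlap, and the log2 difference of −0.39 (SE 0.0993, adjusted p = 0.0203) was lost without replicates 1 or 4 of treated tumor-bearing mice or replicates 1 or 2 of treated naive mice, at −0.37 to −0.30. The core protein Uqcrc1 and the Rieske iron-sulfur protein Uqcrfs1 were called in no comparison. Uqcrc1 averaged 8.80 ± 0.422 FPKM in treated tumor-bearing mice, 9.49 ± 0.935 in treated naive mice, 8.23 ± 0.337 in untreated tumor-bearing mice and 8.96 ± 0.911 in untreated naive mice (SD, n = 4 each). Uqcrfs1 averaged 10.3 ± 0.200, 11.0 ± 0.418, 10.7 ± 0.113 and 10.3 ± 0.687 FPKM in the same 4 groups.

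Complex IV, cytochrome c oxidase, held the largest falls, and they lay in paralogs of restricted expression. Reads per kilobase of annotated exon give the levels of paralogs on 1 scale, although the length counts exons of every annotated transcript. Over the 16 lungs Cox4i1 averaged 148 RPM per exonic kilobase (range 119 to 174) and Cox4i2 47.7 (31.7 to 60.4). On that scale Cox6a1 stood at 149 and Cox6a2 at 23.8, Cox8a at 129 and Cox8b at 5.60, and Cox6b1 at 117 and Cox6b2 at 4.61. Ndufa4 was at 45.8 and Ndufa4l2 at 23.3, while Cox7a2l was at 96.4, Cox7a2 at 35.8 and Cox7a1 at 4.27.

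Ndufa4l2 (chr10:127514939-127517156, plus strand) is known as a target of hypoxia-inducible factor 1 that lowers respiration in cultured cells. It had 12.5, 11.1, 9.96 and 7.93 FPKM in untreated tumor-bearing mice, against 15.1, 15.2, 13.3 and 14.5 FPKM in untreated naive mice. All tumor-bearing values lay below all naive ones, with a wide spread among them, giving a log2 difference of −0.48 (SE 0.105, adjusted p = 0.00196). With treatment it had 8.51, 8.09, 8.49 and 8.79 FPKM in treated tumor-bearing mice, against 14.4, 12.8, 12.1 and 11.4 FPKM in treated naive mice. The treated tumor-bearing libraries were close together and all below the treated naive ones, a log2 difference of −0.55 (SE 0.105, adjusted p = 0.00401). Against untreated naive mice, treated tumor-bearing mice differed by −0.74 (adjusted p = 6.06e-05), and against untreated tumor-bearing mice by −0.26 (adjusted p = 0.172). All 3 falls held in all 20 alternative fits, and the comparisons share groups. The gene ends inside Shmt2 on the other strand by 34 bases, and the product, with 52.9 FPKM of Shmt2, had 0 reads of Ndufa4l2.

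Cox4i2 (chr2:152754173-152765037, plus strand) replaces Cox4i1 in a form of the oxidase that responds to low oxygen. It had 2.83, 2.30, 2.93 and 2.68 FPKM in treated tumor-bearing mice, against 4.38, 3.79, 3.77 and 3.60 FPKM in treated naive mice. The groups did not overlap, a log2 difference of −0.46 (SE 0.0909, adjusted p = 0.00482). Untreated tumor-bearing mice had 3.61, 3.62, 3.42 and 2.58 FPKM, against 4.08, 3.93, 3.70 and 4.17 FPKM in untreated naive mice. Those ranges did not overlap, but the difference of −0.24 (adjusted p = 0.0428) was lost without replicates 3 or 4 of untreated tumor-bearing mice or replicates 1, 2 or 4 of untreated naive mice. Treated tumor-bearing against untreated naive mice gave −0.49 (adjusted p = 0.000632), and that call and the one within treated mice held in all 20 alternative fits. Cox4i1 averaged 37.8 ± 2.33 FPKM in treated tumor-bearing mice, 40.3 ± 3.75 in treated naive mice, 35.5 ± 3.56 in untreated tumor-bearing mice and 39.7 ± 2.36 in untreated naive mice (SD, n = 4 each) and was called in none of the 5 comparisons. Ndufa4 was called lower in treated tumor-bearing mice, at −0.21 (adjusted p = 0.0465) against treated naive and −0.18 (adjusted p = 0.0376) against untreated naive mice. The first of these was lost on leaving out any library but replicate 3 of treated tumor-bearing mice, and the second without replicates 1, 2 or 4 of treated tumor-bearing mice or replicates 1, 2 or 3 of untreated naive mice.

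Some markers of smooth muscle and pericytes were lower in the comparisons in which Ndufa4l2 and Cox4i2 were. The 8 markers summed to 712 to 870 RPM in treated tumor-bearing mice, 794 to 1058 in treated naive mice, 579 to 929 in untreated tumor-bearing mice and 943 to 1133 in untreated naive mice, with 14.1 RPM in the product and Myh11 and Cnn1, 2 of the 8, at 0 there. The sums of treated tumor-bearing and treated naive mice overlapped. Of 7 tested, 3 were lower in untreated tumor-bearing against untreated naive mice, against 27.2% of all genes, 1 in treated tumor-bearing against treated naive mice, against 9.17%, and 3 in treated tumor-bearing against untreated naive mice, against 25.6%. Pdgfrb, a pericyte receptor and the largest called fall of the list in each, differed by −0.57, −0.48 and −0.70 on the log2 scale in these comparisons. Other cell types had such falls too. In the same order, 5, 2 and 3 of 7 fibroblast markers were lower, and 4, 1 and 5 of 8 endothelial markers, with 0 higher. The part of any of these cell types in the values of the paralogs was not tested.

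The muscle forms Cox8b and Cox6a2 fell in untreated tumor-bearing mice. Cox8b (chr7:140898942-140900446, minus strand) had 1.08, 0.754, 0.844 and 0.369 FPKM in untreated tumor-bearing mice, against 1.31, 1.40, 1.50 and 2.17 FPKM in untreated naive mice. The highest tumor-bearing library was below the lowest naive one, and replicate 4 was lowest at under 0.5 FPKM, giving a log2 difference of −0.75 (SE 0.168, adjusted p = 0.0025). Cox6a2 (chr7:128205435-128206366, minus strand, within Itgad on the other strand) had 16.3, 16.6, 13.8 and 9.69 FPKM in untreated tumor-bearing mice, against 20.4, 21.7, 18.8 and 19.3 FPKM in untreated naive mice. These also did not overlap, a log2 difference of −0.52 (SE 0.143, adjusted p = 0.00814), and both calls held in all 20 alternative fits. The common forms were not called: Cox8a differed by 0.02 (adjusted p = 0.927) and Cox6a1 by −0.13 (adjusted p = 0.342). The third muscle form, Cox7a1, differed by −0.37 (adjusted p = 0.0704). Itgad, the host of Cox6a2, was at 0.0172 to 0.0599 FPKM in lungs.

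Among treated mice neither muscle form was called between tumor-bearing and naive lungs. Cox8b had 1.17, 0.997, 1.15 and 1.86 FPKM in treated tumor-bearing mice, against 1.81, 1.69, 1.59 and 1.73 FPKM in treated naive mice. Here the groups overlapped through replicate 4 of treated tumor-bearing mice, and the log2 difference was −0.32 (adjusted p = 0.218). Cox6a2 had 17.3, 12.3, 18.6 and 16.3 FPKM in treated tumor-bearing mice, against 18.6, 19.7, 20.4 and 17.8 FPKM in treated naive mice, overlapping ranges with a difference of −0.26 (adjusted p = 0.247). In tumor-bearing mice, treatment gave 0.52 (adjusted p = 0.0836) for Cox8b and 0.20 (adjusted p = 0.486) for Cox6a2, and the interaction terms were 0.43 (adjusted p = 0.339) for Cox8b and 0.27 (adjusted p = 0.497) for Cox6a2.

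Markers of cardiac muscle, which lines the pulmonary veins of mice, were also lower in untreated tumor-bearing mice. The 11 markers summed to 366 to 697 RPM in treated tumor-bearing mice, 574 to 713 in treated naive mice, 312 to 630 in untreated tumor-bearing mice and 591 to 800 in untreated naive mice. In the product they summed to 4.69 RPM, with 5 of 11 at 0, namely Myh6, Tnnt2, Myl7, Nppa and Sln. Cox6a2 nevertheless had 16.5 FPKM in the product, within the lung range, while Cox8b had 0 reads there. Of 10 tested, 9 were lower in untreated tumor-bearing than in untreated naive mice, against 27.2% of all genes, 0 in treated tumor-bearing than in treated naive mice, against 9.17%, and 6 in treated tumor-bearing than in untreated naive mice, against 25.6%. Replicate 4 of untreated tumor-bearing mice, lowest for Cox8b and Cox6a2, had the lowest cardiac sum of all lungs at 312 RPM. In treated tumor-bearing mice replicate 4 had both the highest cardiac sum, 697 RPM, and the highest Cox8b, and replicate 2, at 366 RPM, the lowest of both. Its replicate 4 was not the highest for Cox6a2, at 16.3 FPKM, the third value of the group. In each naive group the library with the highest cardiac sum had the lowest Cox8b. In treated naive mice this was replicate 3, with 713 RPM and 1.59 FPKM, and in untreated naive mice replicate 1, with 800 RPM and 1.31 FPKM. The library with the next highest sum had the highest Cox8b of its group. That was replicate 1 of treated naive mice, at 625 RPM, and replicate 4 of untreated naive mice, at 756 RPM. Brown adipocyte markers, of a tissue that also uses these forms, were high in replicate 4 of treated tumor-bearing mice: 301 RPM over 8 genes, against 89.9 to 102 RPM in the other 3 and 66.4 to 115 RPM in all other lungs. In that library Cfd, Fabp4, Adipoq and Plin1, which are not confined to brown fat, stood at 90.3, 15.0, 3.64 and 1.92 FPKM. Of the other listed genes, Elovl3 was at 0, Dio2 at 0.163 FPKM and Cidea at 0.202 FPKM there. Ucp1 was 0.324 FPKM, where 0.207 FPKM was the next highest lung value. The part of muscle or fat in the samples was not tested.

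**Figure D4:**
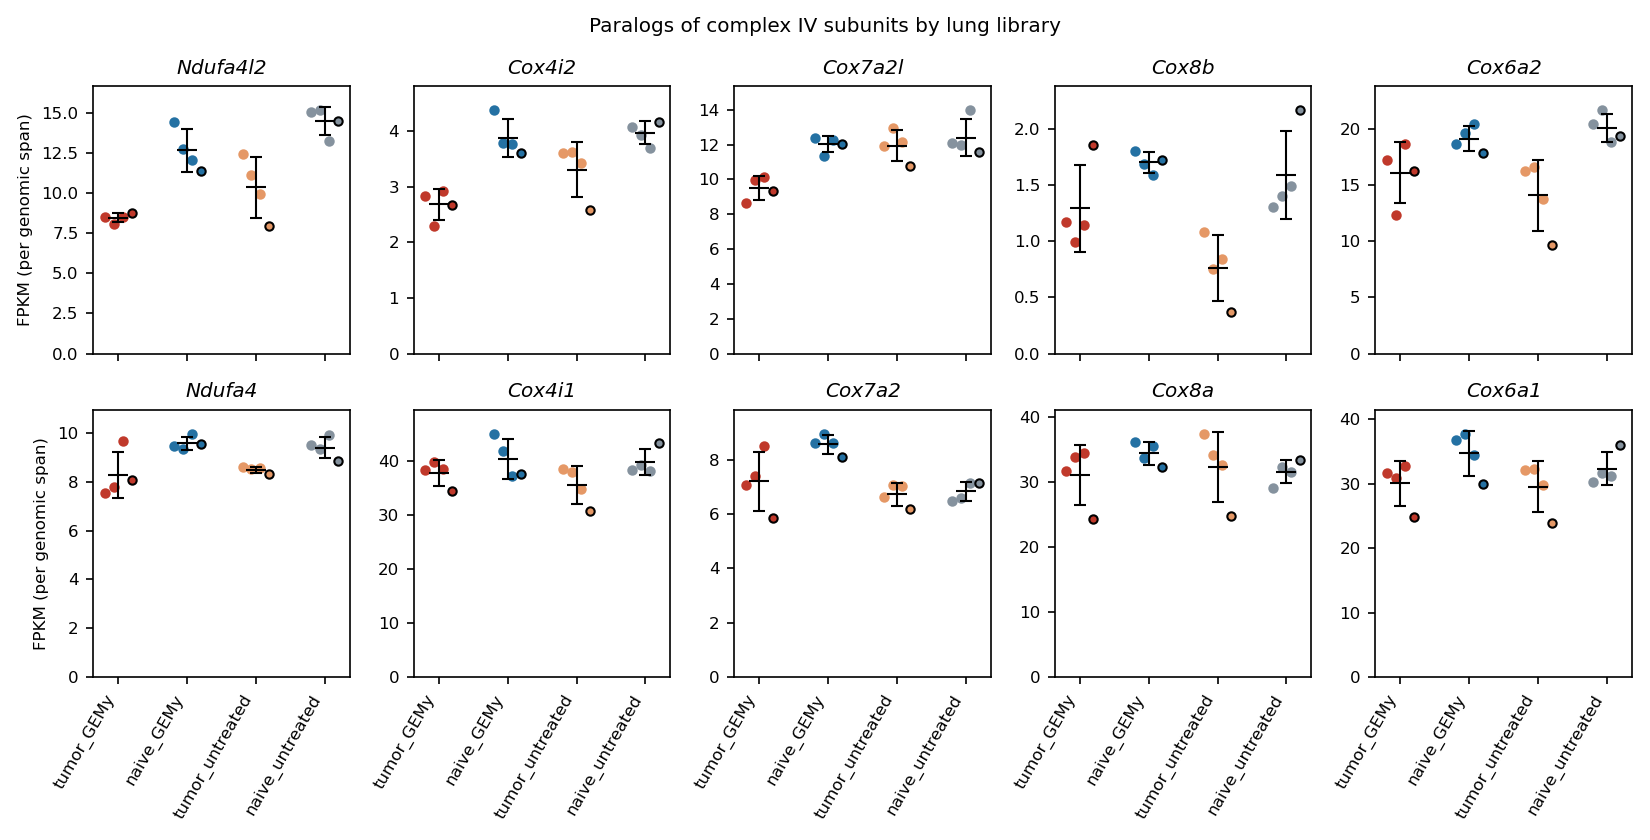
FPKM of 5 restricted or regulatory complex IV genes in the upper row and of their common counterparts in the lower row, by lung library in the 4 groups, with the mean ± SD of 4; replicate 4 of each group is outlined in black. Ndufa4l2, Cox8b and Cox6a2 lie lower in untreated tumor-bearing than in untreated naive mice without overlap, and Cox7a2l lies low in treated tumor-bearing mice, at 8.63 to 10.1 FPKM.

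Cox7a2l (chr17:83501917-83514333, minus strand) encodes SCAF1, which joins complexes III and IV into supercomplexes and which C57BL/6 mice carry in a shortened form. It was the only member lower with treatment in tumor-bearing mice. Its values were 8.63, 9.99, 10.1 and 9.34 FPKM in treated tumor-bearing mice, against 11.9, 13.0, 12.1 and 10.8 FPKM in untreated tumor-bearing mice. Every treated library was below every untreated one, a log2 difference of −0.31 (SE 0.0718, adjusted p = 0.0133). The call held in 19 of the 21 fits and was lost without replicate 2 of untreated tumor-bearing mice, at −0.27, and in a fit of those 2 groups alone. Treated tumor-bearing mice were also lower than treated naive mice, with 12.4, 11.3, 12.3 and 12.1 FPKM, and than untreated naive mice, with 12.1, 12.0, 14.0 and 11.6 FPKM. The log2 differences were −0.32 (adjusted p = 0.00992) and −0.36 (adjusted p = 0.00108), both without overlap and both held in all 20 alternative fits. The other 3 groups overlapped: untreated tumor-bearing against untreated naive mice differed by −0.05 (adjusted p = 0.592) and treated against untreated naive mice by −0.04 (adjusted p = 0.81). The interaction term was −0.27 (adjusted p = 0.136), so the treatment effect in tumor-bearing mice was not shown to differ from that in naive mice.

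Cox7a2, the common form of the subunit that Cox7a1 replaces in muscle, was the only member higher with treatment in naive mice. It had 8.61, 8.95, 8.60 and 8.11 FPKM in treated naive mice, against 6.48, 6.61, 7.14 and 7.14 FPKM in untreated naive mice. All treated libraries stood above all untreated ones, a log2 difference of 0.31 (SE 0.0827, adjusted p = 0.034). The call held in 11 of the 20 fits that gave it a value, the reported one included, and was lost on leaving out any library of the 2 groups except replicate 4 of untreated naive mice, with values of 0.28 to 0.33. In tumor-bearing mice its difference with treatment was 0.09 (adjusted p = 0.633).

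Of other complex IV genes, Cox6b2, a paralog of Cox6b1 known from testis, was lower in untreated tumor-bearing mice at −0.25 (adjusted p = 0.0348), a call lost without replicates 3 or 4 of that group or replicates 1 or 4 of untreated naive mice. Cox6b1 differed there by −0.08 (adjusted p = 0.314). Cox6c was lower in treated tumor-bearing mice than in treated naive mice at −0.22 (adjusted p = 0.033) and than in untreated naive mice at −0.17 (adjusted p = 0.0487), called in 12 and 9 of the 21 fits. Cox5a, a subunit of the matrix side, had positive differences of 0.14 (adjusted p = 0.0591) in untreated tumor-bearing mice and 0.14 (adjusted p = 0.152) in treated naive mice, neither of them called.

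Complex V makes ATP. Its catalytic subunit Atp5b was called in no comparison, with 74.6 to 80.0 FPKM in untreated tumor-bearing mice and 75.5 to 87.1 FPKM in untreated naive mice. Atp5g1, Atp5g2 and Atp5g3 encode the same mature c subunit of the rotor behind different import peptides. Atp5g1 had 5.25, 5.94, 5.85 and 5.48 FPKM in untreated tumor-bearing mice, against 6.75, 6.70, 6.50 and 7.14 FPKM in untreated naive mice. The groups did not overlap, and the log2 difference of −0.25 (SE 0.0846, adjusted p = 0.0269) was lost without replicates 1 or 4 of either group. Atp5g2 differed by −0.22 (adjusted p = 0.0258), lost without replicates 2 or 4 of untreated tumor-bearing mice or replicate 4 of untreated naive mice, and Atp5g3 by −0.10 (adjusted p = 0.306). The stalk subunit Atp5o differed by −0.17 (adjusted p = 0.0453), called in 10 of 21 fits. With treatment the one call was Atp5l, subunit g of the membrane part. It had 5.00, 5.07, 6.13 and 5.12 FPKM in treated tumor-bearing mice, against 6.46, 6.27, 6.19 and 6.31 FPKM in treated naive mice. Only replicate 3 of the treated tumor-bearing libraries came near the treated naive values, and the difference of −0.23 (adjusted p = 0.0394) was lost on leaving out any library of the 2 groups except that one.

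Assembly factors are not part of the finished complexes. Sdhaf1 (chr7:30321409-30322375, minus strand) helps to place iron-sulfur clusters in Sdhb. It had 10.2, 10.8, 8.74 and 7.01 FPKM in untreated tumor-bearing mice, against 11.8, 11.1, 14.1 and 11.6 FPKM in untreated naive mice. No tumor-bearing library reached the lowest naive one, a log2 difference of −0.40 (SE 0.119, adjusted p = 0.0133) that held in all 20 alternative fits. Treated tumor-bearing mice had 9.89, 9.83, 11.0 and 7.85 FPKM, a difference of −0.32 (adjusted p = 0.041) from untreated naive mice that was lost without replicates 1, 2 or 4 of treated tumor-bearing mice or replicates 1, 3 or 4 of untreated naive mice. Ndufaf3, an early assembly factor of complex I, was lower in untreated tumor-bearing mice at −0.31 (adjusted p = 0.00814), held in all 20 alternative fits, and in treated tumor-bearing against untreated naive mice at −0.24 (adjusted p = 0.0393), called in 12 of 21 fits. Ndufaf7, another assembly factor of complex I, had 1.70, 1.67, 1.78 and 1.64 FPKM in treated tumor-bearing mice, against 1.92, 2.05, 2.02 and 1.93 FPKM in treated naive mice. Those groups did not overlap, with a difference of −0.18 (adjusted p = 0.0166) that was lost without replicate 2 of treated naive mice, at −0.16. Against untreated naive mice it was −0.19 (adjusted p = 0.00298) and held in all 20 alternative fits. Ndufaf1 was lower in the same comparison, with a difference of −0.17 (adjusted p = 0.0366), called in 13 of 21 fits.

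Of the 4 copies 3 were tested and are among the 92, and none was called in the 5 comparisons. Reads of near-identical genes can be split between them, so their values are uncertain. Ndufb4c, on chromosome 15, matched Ndufb4 over all 390 bases of its longest transcript, at 100% identity, and was listed at 52.3 to 82.2 FPKM in lungs where Ndufb4 was listed at 0.220 to 0.450 FPKM. FPKM is per genomic span here, so these FPKM cannot be set against each other. In RPM the lung means were 34.3 for Ndufb4c and 2.02 for Ndufb4. How reads were divided between these genes was not tested, and the Ndufb4 values are uncertain. Ndufs5 and Ndufs5-ps had lung means of 12.3 and 11.9 RPM, and Cox7c and Cox7c-ps1 had 4.85 and 0.190 RPM. Recovered reads of these genes were fractional and the identity within each pair was not measured, so the Ndufs5 and Cox7c values are uncertain too. Ndufa11b matched Ndufa11 at 94.8% over 424 bases and reached at most 0.194 FPKM. In all, 19 members, 3 of the copies among them, overlapped another gene in the table, and the strand used in counting is not given in the sources used here.

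Most members were higher in the cell product than in lungs. Of the 92 members at the minimum, 35 were at least 1.5-fold higher in the product than in the mean of 16 lungs and 5 at least 1.5-fold lower, on FPKM + 0.5, where 31.6% and 29.0% of 11150 genes were, those being the genes with at least 0.5 FPKM in 4 or more lungs or in the product. The share of members past that fold was thus near the share of all genes on the higher side and below it on the lower side. The median ratio was 1.39 over members and 1.10 over all genes. The product exceeded every lung in 64 members, against 47.2% of genes, and lay below every lung in 7, against 36.1%. There is 1 product library, so no test was made, and cells grown from marrow were set against whole tissue.

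Complex V stood furthest above lungs, and the 8 assembly factors at the minimum stood close to them. Of complex V members 13 of 17 were at least 1.5-fold higher in the product, with a median ratio of 1.59. Complex III had 4 of 8 and a median of 1.53, complex IV 8 of 18 and 1.43, complex II 1 of 4 and 1.40, complex I 6 of 34 and 1.30, and assembly factors 1 of 8 and 1.04. The 4 assembly factors under the minimum had 92 to 378 reads in the product and lay above every lung there. All 12 assembly factors summed to 184 RPM in the product and 111 to 144 RPM in lungs. Atp5b stood at 168 FPKM in the product, against 74.6 to 87.1 FPKM in the 16 lungs. The 5 highest ratios belonged to the complex IV subunit Cox7b, the complex I assembly factor Ndufaf4, the stator subunit Atp5pb, Cox5a and the complex V subunit Atp5k. Cox7b had 20.4 FPKM in the product and a lung mean of 7.46, a ratio of 2.63. Without the added 0.5 the ratio was 2.74 for Cox7b and 2.85 for Ndufaf4. Ndufaf4 had 3.99 and 1.40 FPKM, Atp5pb 17.2 and 7.31, Cox5a 9.43 and 4.12, and Atp5k 60.9 and 28.2, product before lung mean in each, with ratios of 2.36, 2.27, 2.15 and 2.14.

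All 5 members at least 1.5-fold lower in the product were paralogs of complex IV with restricted expression. Ndufa4l2 had 0 reads in the product, against a lung mean of 11.5 FPKM, and was at least 265-fold lower, taking 3 reads in the product as the floor. Cox8b also had 0 reads, against 1.34 FPKM, and was at least 20.9-fold lower by the same floor. Cox4i2 had 38 reads and 0.112 FPKM, against 3.46 FPKM. Cox6b2 had 0.715 FPKM, against 3.92 FPKM, and Cox7a1 0.242 FPKM, against 1.23 FPKM. Cox6a2 was the exception among muscle forms: the product had 16.5 FPKM, within the lung range of 9.69 to 21.7 FPKM, while Itgad, in which the gene lies, was at 0.0384 FPKM there. Ndufa7 and Atp5e were the other members below every lung.

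**Figure D5:**
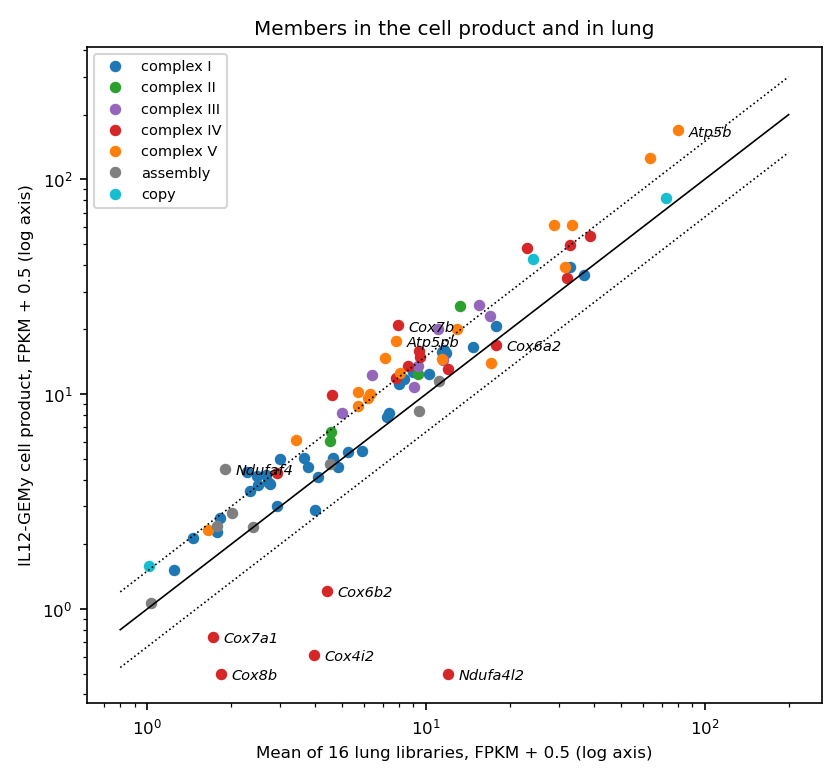
FPKM + 0.5 of 92 members in the cell product against their mean over 16 lungs, on log axes, with the line of equal values and dotted lines at 1.5-fold; colours give the complex. Most members lie above the line of equal values, 64 of them above every lung, and Ndufa4l2, Cox8b, Cox4i2, Cox6b2 and Cox7a1 lie far below it.

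Other genes of mitochondrial and energy metabolism were counted from lists that name the pathway. In untreated tumor-bearing against untreated naive mice, where 16.9% of all genes were higher and 27.2% lower, 14 of 24 glycolysis genes were higher and 4 lower, with a median log2 difference of 0.23. The part of the rise in neutrophil markers in these counts was not tested. Slc16a3, a lactate exporter, averaged 8.50 ± 1.25 FPKM in untreated tumor-bearing mice and 1.71 ± 0.194 FPKM in untreated naive mice (SD, n = 4 each), a log2 difference of 2.02 (adjusted p = 3.07e-07), and Ldhb, a lactate dehydrogenase subunit, averaged 8.14 ± 0.915 FPKM in untreated tumor-bearing mice and 11.8 ± 0.810 FPKM in untreated naive mice (SD, n = 4 each), a log2 difference of −0.51 (adjusted p = 0.000179). Of 17 genes of the tricarboxylic acid cycle, which supplies NADH and succinate, 6 were lower and 0 higher, and 12 of 72 mitochondrial ribosomal proteins were lower and 2 higher. Of 27 assembly factors outside the naming rule 7 were lower and 0 higher, and Uqcc3, of complex III, averaged 16.5 ± 1.97 FPKM in untreated tumor-bearing mice and 20.5 ± 1.21 FPKM in untreated naive mice (SD, n = 4 each), a log2 difference of −0.31 (adjusted p = 0.0119). Among 17 other carriers and subunits 6 were lower and 1 higher, the last being Slc25a5, an exchanger of ADP and ATP, at a log2 difference of 0.26. Factors for mitochondrial DNA and translation had 2 of 15 lower and 1 higher, import and cristae genes 2 of 17 lower and 0 higher, and transcriptional regulators 2 of 9 higher and 0 lower. The lower shares of the ribosomal proteins, the assembly factors, the factors for mitochondrial DNA and translation and the import genes were below that of all genes. Myc, a regulator that also drives glycolysis genes, averaged 4.15 ± 0.845 FPKM in untreated tumor-bearing mice and 1.87 ± 0.197 FPKM in untreated naive mice (SD, n = 4 each), a log2 difference of 0.96 (adjusted p = 6.54e-06).

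Among treated mice, tumor-bearing against naive, where 4.03% of all genes were higher and 9.17% lower, glycolysis had 7 of 24 higher and 1 lower, the ribosomal proteins 4 of 72 lower and assembly factors outside the rule 3 of 27 lower. Uqcc3 averaged 15.5 ± 1.40 FPKM in treated tumor-bearing mice and 21.2 ± 1.88 FPKM in treated naive mice (SD, n = 4 each), a log2 difference of −0.44 (adjusted p = 0.00662), and Twnk, the helicase of mitochondrial DNA, averaged 1.92 ± 0.0494 FPKM in treated tumor-bearing mice and 2.48 ± 0.137 FPKM in treated naive mice (SD, n = 4 each), a log2 difference of −0.30 (adjusted p = 0.00966). In treated against untreated tumor-bearing mice, where 3.00% of all genes were higher and 3.72% lower, 3 of 24 glycolysis genes were higher and 1 lower. The lower one was Slc16a3, with 4.74 ± 1.85 FPKM in treated and 8.50 ± 1.25 FPKM in untreated tumor-bearing mice (SD, n = 4 each). Its log2 difference was −0.83 (adjusted p = 0.00616 in limma). Of 17 genes of the tricarboxylic acid cycle 1 was higher, Pcx, the pyruvate carboxylase, which averaged 0.834 ± 0.156 FPKM in treated tumor-bearing mice and 0.588 ± 0.0798 FPKM in untreated tumor-bearing mice (SD, n = 4 each), a log2 difference of 0.29 (adjusted p = 0.0273). Of 27 assembly factors 1 was higher, Bcs1l, which inserts the Rieske protein into complex III, at a log2 difference of 0.20. In treated against untreated naive mice, where 5.60% of all genes were higher and 1.50% lower, 3 of 24 glycolysis genes were higher and 0 lower, and Hk3, a hexokinase of myeloid cells, averaged 1.50 ± 0.208 FPKM in treated naive mice and 0.413 ± 0.0736 FPKM in untreated naive mice (SD, n = 4 each), a log2 difference of 1.13 (adjusted p = 0.000195). The interaction was called negative in 2 of 24 glycolysis genes and positive in 0, against 5.22% and 1.04% of all genes. It was −1.07 for Hk3 (adjusted p = 0.0113 in limma). Of the 17 genes of the tricarboxylic acid cycle 1 had a positive interaction, Pcx at 0.37 (adjusted p = 0.0469 in limma), and 0 a negative one. Against untreated naive mice, where 13.6% of all genes were higher and 25.6% lower, treated tumor-bearing mice had 13 of 24 glycolysis genes higher and 2 lower, 1 of 17 genes of the tricarboxylic acid cycle lower, and 2 of 72 mitochondrial ribosomal proteins higher and 5 lower.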

How the data were processed

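The deposited table holds FPKM, for 18262 genes in 17 libraries; per the submitters' processing notes the authors used STAR 2.7.3a and Partek on mm10, and roles, the annotation and strand of counting are not given in the sources used here. Each value times the gene's genomic span in kilobases is an RPM (reads per 1E6), so length is the span, and totals equalise depth but not composition: a few very abundant genes lower all others. Lung libraries held 27566479 to 36814537 recovered reads, and values below 1000 reads came out whole, within 0.02, in 86.5% to 88.4% of cases, too few for a count test. FPKM have no interval here beyond the spread of 4 libraries.

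Genes reaching 0.5 FPKM in 4 or more lung libraries were kept, and their log2(FPKM + 0.5) was fitted in limma 3.58.1 (R 4.3.3) with 4 group means over all 16 lungs, trended and robust moderation, two-sided tests and Benjamini-Hochberg adjustment over 10284 genes, called under 0.05. The fit was also run on simulated data with independent noise for each gene and library. Those data held no shift shared by many genes of a library, so they do not bear on the library shifts described above. The cell product, 1 library, was given as ratios. Exon lengths came from GENCODE vM21 and promoters from RefSeq, both on GRCm38, the assembly of mm10. Tables were handled in Python 3.11.15 with pandas 2.3.3.

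Members and lists were chosen with earlier results of these data known. Named genes were the largest called rise and fall of each complex and comparison, the paralogs, complex II, 1 or 2 core subunits of each other complex, and the 5 highest and lowest product ratios; other called members were added after their values were seen. Alternatives were pseudocounts of 0.1 and 1, minima of none and 1 FPKM, median-of-ratios scaling, quantile normalization, totals without hemoglobin, RPM, compared groups only, plain moderation, a replicate block and leaving out each library.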

Additional observations from a re-analysis of the deposited data

Results flagged for a closer look

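In groups of 4 libraries, 4 of 156 checks found 1 library far from the other 3, and chance alone marks about 1 in 20 such groups. Atp5g2 was 5.29 FPKM in replicate 3 of treated naive mice, where the other 3 had 5.87 to 5.98 FPKM. Atp5g3 was 35.8 FPKM in replicate 4 of untreated naive mice, where the other 3 had 31.7 to 32.4 FPKM. The summed complex V level of that same library was 2210 RPM, where the other 3 had 2008 to 2026 RPM. Atp5l was 6.13 FPKM in replicate 3 of treated tumor-bearing mice, where the other 3 had 5.00 to 5.12 FPKM.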

How the results depend on the processing

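Among members named by the rule above, the only ones checked for this, no called value reversed under any alternative, while 145 uncalled results changed sign. In untreated tumor-bearing against untreated naive mice, members called lower numbered 8 under median-of-ratios scaling and 12 without replicate 4 of both tumor-bearing groups, an alternative chosen after the data were seen, and 9 to 28 without 1 library; 1 was higher under median-of-ratios scaling and without hemoglobin, and 0 to 1 without 1 library. Treated naive against untreated naive mice had 0 higher with no minimum and under quantile normalization, 3 with the compared groups only, and 0 to 1 without 1 library. Within tumor-bearing mice, treatment gave 0 lower with the compared groups only, 1 higher and 3 lower without both replicates 4, and 0 to 1 higher and 0 to 3 lower without 1 library. Treated tumor-bearing against treated naive mice had 5 lower under median-of-ratios scaling and 6 to 19 without 1 library. Treated tumor-bearing against untreated naive mice had counts of 5 lower and 1 higher under median-of-ratios scaling, 20 lower under quantile normalization and 6 to 16 lower without 1 library, and median-of-ratios scaling put the members' median log2 difference at −0.0067. The interaction had 0 to 1 lower without 1 library. Named members lost a call in 118 refits and gained one in 25. In the cell product 33, 40 and 29 members were at least 1.5-fold higher against untreated naive lungs alone, with a pseudocount of 0.1 and with 1.

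A serial number opens each deposited library name and keeps the lung libraries of the same replicate number, 1 of each group, next to each other. What this order marks is not stated. Of 24 same-number pairs, r ran from −0.313 to 0.594, 12 were over 0.1 and 10 libraries matched their own number best. With the replicate block, 23, 18 and 15 members were lower in the 3 comparisons of tumor-bearing with naive mice (untreated, treated, and treated against untreated naive), 1 was higher with treatment in naive mice and 1 lower in tumor-bearing mice. With 4 libraries a group, a missing call does not show equal levels.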
